A study of Mus musculus with 14 samples.

Results

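The 3 RUNX transcription factor genes *Runx1*, *Runx2* and *Runx3*, their shared partner gene *Cbfb*, and *Zbtb7b*, which encodes ThPOK, were followed in RNA-seq libraries of activated mouse CD4+ T cells. These 5 genes were taken by symbol, or, where a library listed no row under the symbol, from the assembled locus that matched the gene's position on mm10. Both kinds of row together gave a value for all 5 genes in all 14 samples, and all 5 were among the 15111 genes tested in the first experiment and the 13943 tested in the second. Values are in FPKM, the number of fragments of a transcript scaled by its length and by the size of the library, which can be compared between genes because of the division by length.

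The libraries came from 2 experiments on C57BL/6 mice, each with its own WT samples, and the labels give the tissue as spleen, while the study's methods for naive CD4+ T cells pool spleen with lymph nodes. In the first, 4 WT samples stood against 4 HDAC1cKO-HDAC2HET samples (*Hdac1* f/f, *Hdac2* f/+, CD4-cre), in which both *Hdac1* alleles and 1 of the 2 *Hdac2* alleles are floxed. Their naive CD4+ T cells were activated for 3 days with anti-CD3 and anti-CD28 under nonpolarizing conditions with IL-2. In the second, 3 WT samples stood against 3 HDAC1cKO samples (*Hdac1* f/f, CD4-cre), whose cells had 3 days of activation followed by 12 hours of renewed contact with anti-CD3, called restimulation below. The labels give no age. *Cd4*-Cre is known to act from the double-positive thymocyte stage on, before the CD4 and CD8 lineages part, and therefore in CD8+ as well as CD4+ T cells. Genotype, culture and experiment changed together between the 2 experiments and cannot be told apart.

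RUNX proteins bind DNA through the Runt domain, and their non-DNA-binding partner CBFβ, the product of *Cbfb*, raises the affinity of that binding and stabilizes the complex. In the thymus RUNX3 and ThPOK oppose each other. RUNX3 silences *Cd4* and *Zbtb7b* in cells that become CD8+ cytotoxic T cells, whereas ThPOK, a BTB zinc finger repressor, holds *Runx3* and cytotoxic genes down in cells that become CD4+ helper T cells. RUNX1 is the RUNX protein of early thymocytes and naive T cells, and RUNX2 is best known from bone. HDAC1 and HDAC2 are histone deacetylases that work in corepressor complexes.

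Before the values, the sequences upstream of the annotated starts are given for the genes in which the 6-base RUNX motif was found, with the second *Zbtb7b* start beside them for contrast. The motif was searched as TGNGGT on one strand, which is ACCNCA on the other, in the 250 bases before each RefSeq start (GRCm38.p6), and matches are in capitals. These stretches are written 5′ to 3′ on the strand of the gene.
*Runx3* distal start, chr4:135120395-135120644 on the plus strand: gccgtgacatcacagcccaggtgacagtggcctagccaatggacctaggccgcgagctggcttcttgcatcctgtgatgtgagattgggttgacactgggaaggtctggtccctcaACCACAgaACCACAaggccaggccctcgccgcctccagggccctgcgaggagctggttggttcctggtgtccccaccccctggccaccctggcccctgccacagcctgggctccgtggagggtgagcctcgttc
*Zbtb7b* upstream start, chr3:89393379-89393628 on the minus strand: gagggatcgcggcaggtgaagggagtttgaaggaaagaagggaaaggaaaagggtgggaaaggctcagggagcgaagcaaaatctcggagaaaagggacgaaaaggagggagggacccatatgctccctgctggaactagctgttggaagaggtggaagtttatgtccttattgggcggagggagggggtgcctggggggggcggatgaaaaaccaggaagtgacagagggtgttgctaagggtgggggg
*Zbtb7b* downstream start, chr3:89387672-89387921 on the minus strand: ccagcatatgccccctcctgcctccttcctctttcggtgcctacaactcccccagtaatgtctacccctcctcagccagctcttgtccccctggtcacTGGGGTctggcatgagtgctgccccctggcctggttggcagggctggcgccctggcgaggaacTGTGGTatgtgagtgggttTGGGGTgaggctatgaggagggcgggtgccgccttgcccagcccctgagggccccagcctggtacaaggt
*Runx2* start, chr17:44814628-44814877 on the minus strand: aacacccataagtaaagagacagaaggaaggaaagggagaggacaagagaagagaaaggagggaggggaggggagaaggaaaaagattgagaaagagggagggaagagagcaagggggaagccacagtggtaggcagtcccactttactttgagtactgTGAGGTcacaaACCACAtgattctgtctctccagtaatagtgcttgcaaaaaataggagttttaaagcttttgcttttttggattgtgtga

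The distal *Runx3* window held 2 copies of ACCACA that begin at positions -134 and -126 from the start, both of them the classical core TGTGGT read on the other strand. The *Zbtb7b* window at the downstream start held 3 matches, 1 of them TGTGGT, and the window at its upstream start held 0. The *Runx2* window held 2. The windows before both *Runx1* starts, before the second *Runx3* start and before *Cbfb* held 0. Of all 32851 RefSeq windows of this length, 40.1% held at least 1 match, 10.4% held 2 or more and 14% held the core TGTGGT, so a match is common and is given here as a description. The FPKM below are per gene and do not separate the starts.

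The check of the genotypes came first. *Hdac1* went from 78.1 ± 1.44 FPKM (SD, n = 4) in WT to 8.30 ± 1.89 (n = 4) in HDAC1cKO-HDAC2HET cells, and *Hdac2* from 59.0 ± 1.04 to 35.4 ± 1.36. In the second experiment *Hdac1* went from 75.6 ± 4.78 (SD, n = 3) to 10.1 ± 1.82 (n = 3) in HDAC1cKO cells, while *Hdac2* was at 72.4 ± 8.65 and 80.4 ± 6.91 and did not pass the test (adjusted p = 0.582). The libraries held an estimated 25500000 to 60000000 fragments. As for the cell type, the 9 T cell markers summed to 1539 to 2122 FPKM in all samples and *Cd4* was at 160.3 FPKM or more in every one. The erythroid markers and those NK cell markers that had a value summed to at most 0.0938 FPKM, with *Klra8* listed at 0 throughout. Of the 7 myeloid markers, the 5 with a value in the first experiment summed to at most 0.394 FPKM and the 6 with a value in the second to 4.14 to 5.85. Most of the latter was *Cd68*, which had no value in the first experiment, so these sums are not comparable.

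All 5 genes differed between HDAC1cKO-HDAC2HET and WT cells, with 2 higher and 3 lower. *Runx3* and *Runx2* rose, and *Runx1*, *Zbtb7b* and *Cbfb* fell. Of the 15111 genes tested, 24.2% were called higher and 27.6% lower at an adjusted p of at most 0.05 (limma on log2(FPKM + 0.1), Benjamini-Hochberg over all genes tested), so the share of the 5 genes called stands against a background in which more than 1 gene in 2 was called. For each of the 5 the groups did not overlap, and the 2-sided exact permutation test gave p = 0.0286, the smallest that 4 samples against 4 allow. The share of all genes tested whose groups did not overlap is not given here. The separation is therefore not read as particular to the 5. For the first experiment the study describes independently prepared cell batches, 4 per genotype, all made on 1 day. For the second the sources used here do not say whether samples came from separate mice. Its WT samples differed in *Xist*, as given below, so they did not all come from the same mouse. Beyond that the origin is not known, so its p-values measure the spread between these samples, which may be partly technical. In such bulk samples more cells with a transcript cannot be told apart from more transcript per cell.

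*Runx3*, on chromosome 4 (135120652 to 135177990, plus strand), rose 3.01-fold. WT samples had a *Runx3* FPKM of 16.4, 14.3, 17.1 and 14.4, and HDAC1cKO-HDAC2HET samples had 67.6, 41.4, 41.0 and 41.9. Every mutant sample was above every WT sample, and the first mutant sample stood apart from the other 3. The mean went from 15.5 ± 1.39 to 48.0 ± 13.1 FPKM (log2 fold change 1.59, standard error, SE, 0.17, limma adjusted p = 0.000136). Without the first mutant sample the log2 fold change was 1.41 (SE 0.07, adjusted p = 2.53e-05), about that of *Runx2* at 1.43 without the same sample. Of the genes tested, 5.6% rose at least 2-fold at an adjusted p of at most 0.05.

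*Runx2*, on chromosome 17 (44495987 to 44814797, minus strand), rose from a low level. The WT samples were at 0.767, 0.354, 0.551 and 0.530 FPKM and the mutant samples at 1.54, 1.57, 1.55 and 1.71. The groups did not overlap, and the mutant values lay closer together than the WT values. The interval that Cufflinks gives around each value ran to 15.96% to 29.9% of the value on either side in WT. *Runx2* rose by 1.41 on the log2 scale (SE 0.19, limma adjusted p = 0.000425), and by 0.75 with 1 instead of 0.1 added to the FPKM before the logarithm. In this experiment the *Runx2* locus in the files covered a share of 0.661 of the annotated gene and was taken because it coincides with an annotated transcript. A match to the span of the whole gene alone would have left *Runx2* without a value here.

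*Runx1*, on chromosome 16 (92601466 to 92826149, minus strand), moved the other way. Its WT samples were at 10.9, 10.5, 9.66 and 12.6 FPKM and its mutant samples at 5.91, 5.35, 5.62 and 6.74, with no overlap. The mean fell from 10.9 ± 1.25 to 5.90 ± 0.602, which is 1.84-fold lower (log2 fold change -0.88, SE 0.10, limma adjusted p = 0.000187). *Runx1* and *Runx3* therefore changed in opposite directions in the same samples.

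*Zbtb7b*, on chromosome 3 (89377644 to 89394776, minus strand), was at 33.4, 35.7, 33.3 and 33.3 FPKM in WT. In HDAC1cKO-HDAC2HET cells it was at 22.6, 24.5, 23.3 and 21.8 FPKM. The groups lay apart and were narrow, with a mean of 33.9 ± 1.18 in WT and 23.04 ± 1.15 in the mutant. The fall was 1.47-fold (log2 fold change -0.56, SE 0.04, limma adjusted p = 2.94e-05). In the rows used here *Zbtb7b* thus kept 67.9% of its WT level. The antisense gene *Gm15417*, which the annotation places over the 5′ end of *Zbtb7b* on the other strand (chromosome 3, 89391850 to 89398779), also fell, from 1.42 ± 0.183 to 0.630 ± 0.0924 FPKM (limma adjusted p = 0.000344). The libraries were made with a stranded kit, but the strand setting used in counting is not given in the sources used here.

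*Cbfb*, on chromosome 8 (105170674 to 105217989, plus strand), had the highest level of the 5 and the smallest change. It was at 74.3, 77.8, 73.0 and 79.6 FPKM in WT and at 59.5, 56.5, 48.0 and 60.3 in HDAC1cKO-HDAC2HET cells, every mutant value below every WT value. The mean fell from 76.2 ± 3.04 to 56.1 ± 5.61, 1.36-fold lower (log2 fold change -0.45, SE 0.07, limma adjusted p = 0.00141).

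**Figure D1:**
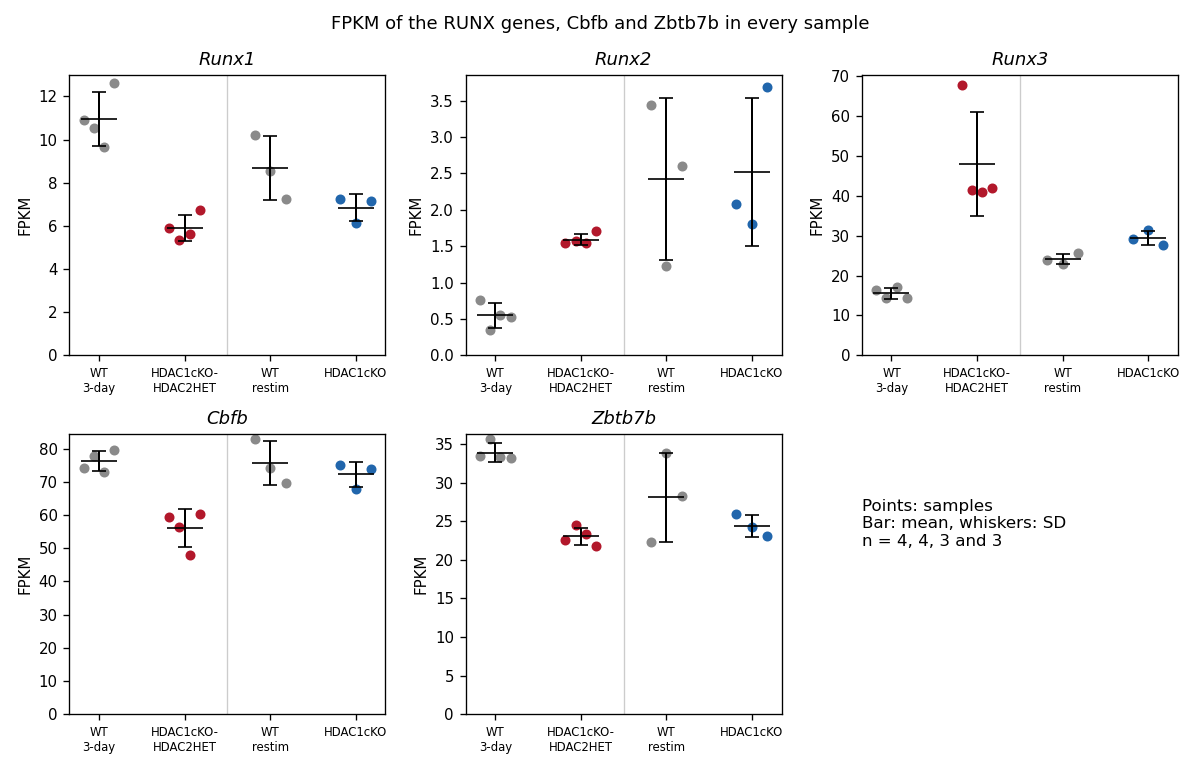
FPKM (y axis, linear from 0) of the 5 genes in each sample (points) of the 4 groups on the x axis, with the mean and SD as bar and whiskers (n = 4, 4, 3 and 3). In the first experiment (left of the line) the groups do not overlap for any of the 5 genes, and the first HDAC1cKO-HDAC2HET sample stands apart for *Runx3* at 67.6 FPKM.

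Markers of CD8 T cells, which carry much *Runx3* and little *Zbtb7b*, moved in the same comparison. *Cd8b1* went from 4.71 ± 1.34 to 12.8 ± 1.59 FPKM and *Cd8a* from 0.0581 ± 0.0224 to 0.439 ± 0.108, both called higher. The sum of the 2 CD8 markers ranged from 3.28 to 5.96 FPKM in WT and from 11.7 to 15.2 in HDAC1cKO-HDAC2HET cells. Both helper markers were called lower, *Cd4* from 213 ± 3.93 to 164 ± 3.37 FPKM and *Cd40lg*, the CD40 ligand, from 120 ± 10.3 to 58.2 ± 5.09. Of the 9 T cell markers, 6 were called lower as well and 2 higher. Their median log2 fold change was -0.37, beside -0.38 for *Cd4*. Of all genes tested, 24.2% were called higher and 27.6% lower. The fall is therefore not read as particular to the helper markers. The 5 B cell markers summed to 0.514 to 0.987 FPKM in WT and to 2.83 to 4.43 in the mutant, mostly from *Cd79b*. In the study's methods, cells carrying CD8α, B220 and other lineage markers were depleted and naive CD4+ T cells then sorted before the culture. By flow cytometry the study found CD8α protein undetected or very low in activated CD4+ T cells of its genotypes. It also reported higher *Runx3* and lower *Zbtb7b* in the libraries of the first experiment. RUNX3 and ThPOK protein moved the same way in its flow cytometry. The part of other cells in the results was not tested here.

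In HDAC1cKO cells after restimulation, 0 of the 5 genes were called higher and 0 lower by limma, against a background of 0.0143% of 13943 genes called higher and 0.0574% called lower. At an unadjusted p under 0.05 the count was 1 of the 5, *Runx3*, while 1997 of all genes were under that value. With 3 samples against 3 the smallest p of a 2-sided exact permutation test is 0.1. A missed threshold does not show that the levels were equal.

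*Runx3* was the gene of the 5 whose groups did not overlap after restimulation, and the share of all genes without overlap is not given here either. It was at 23.9, 23.0 and 25.6 FPKM in WT and at 29.3, 31.3 and 27.7 in HDAC1cKO cells, with means of 24.2 ± 1.32 and 29.4 ± 1.80. All 3 mutant samples were above all 3 WT samples (log2 fold change 0.28, SE 0.08, limma adjusted p = 0.242, exact permutation p = 0.1). The sum of *Cd8a* and *Cd8b1* ranged from 3.80 to 4.86 FPKM in these WT samples and from 6.52 to 7.30 in the HDAC1cKO samples, with neither marker called, and its part in the *Runx3* values was not tested. For *Runx1*, the FPKM was 10.2, 8.55 and 7.25 in WT and 7.26, 6.12 and 7.17 in HDAC1cKO cells. The *Runx1* groups met at their edges, and the estimate was -0.33 (SE 0.16, limma adjusted p = 0.398), or -0.20 without the first WT sample.

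For *Zbtb7b* the WT samples spread from 22.3 over 28.2 to 33.8 FPKM and the HDAC1cKO samples from 23.1 over 24.2 to 25.9. The mutant values lay within the range of WT (log2 fold change -0.18, SE 0.16, limma adjusted p = 0.617). *Cbfb* was at 82.8, 74.3 and 69.8 FPKM in WT and at 75.0, 68.0 and 73.9 in the mutant, with an estimate of -0.06 (SE 0.09, adjusted p = 0.767). *Runx2* was at 3.44, 1.23 and 2.61 FPKM in WT and at 2.08, 1.80 and 3.69 in the mutant, where the groups overlapped (0.10, SE 0.44, adjusted p = 0.943). The sign of the *Runx2* estimate turned when either the second WT or the third mutant sample was left out. Here the *Runx2* locus covered the whole gene, so its levels are not comparable with those of the first experiment.

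The *Zbtb7b* value was -0.04 without the second WT sample of the restimulated cells and -0.34 without the first (adjusted p = 0.922 and 0.214). The second WT sample also differed from the other 2 WT samples in *Xist*, which is transcribed from the inactive X chromosome. *Xist* was at 0.0188 FPKM there and at 42.9 and 33.2 FPKM in the other 2, while it was at most 0.0435 FPKM in all 3 HDAC1cKO samples and at least 26.0 FPKM in all 8 samples of the first experiment. With the sex read from *Xist* as a covariate the estimates were -0.47 (SE 0.16) for *Zbtb7b*, 0.36 (0.11) for *Runx3* and 0.92 (0.46) for *Runx2*, with adjusted p of 0.422, 0.394 and 0.553. That fit separates sex from genotype through 1 WT sample alone.

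**Figure D2:**
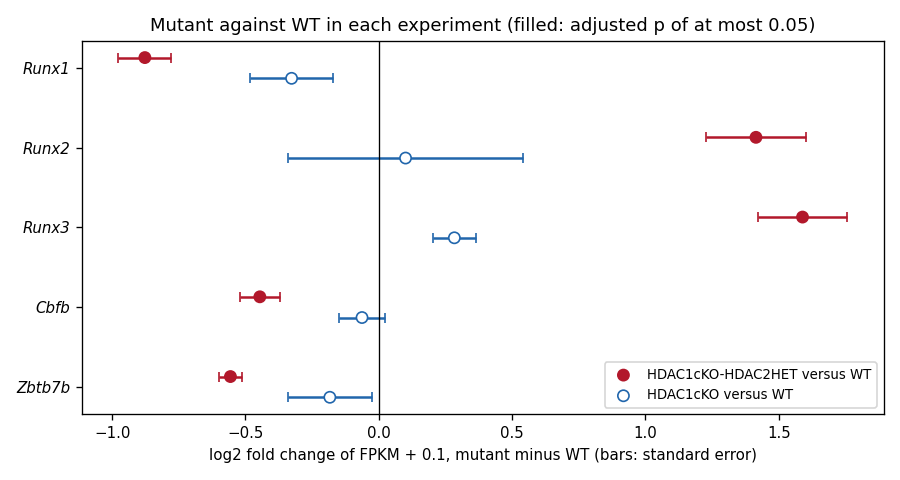
Log2 fold change of FPKM + 0.1 (x axis, mutant minus WT, with the SE as bars) for each of the 5 genes in HDAC1cKO-HDAC2HET (red) and HDAC1cKO (blue) cells, where filled points have a limma adjusted p of at most 0.05. All 5 red points are filled and 0 blue points are, and for each gene the blue estimate has the sign of the red one and lies nearer to 0. The blue estimates of *Runx2* and *Cbfb* are smaller than their SE, and their signs turned when certain single samples were left out.

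The difference between both contrasts was tested itself, over 12367 genes measured in both experiments, of which 8.21% were called higher and 7.46% lower. *Runx3* rose more in HDAC1cKO-HDAC2HET than in HDAC1cKO cells, by 1.31 on the log2 scale (SE 0.21, limma adjusted p = 0.00196). *Cbfb* fell more, with a difference of -0.38 (SE 0.11, adjusted p = 0.0411), a call that was lost in 14 of 28 other settings. The differences for *Runx1* (-0.55, SE 0.18, adjusted p = 0.0572), *Runx2* (1.31, 0.46, adjusted p = 0.0758) and *Zbtb7b* (-0.37, 0.15, adjusted p = 0.121) did not pass the threshold. These 3 differences depended on the setting. That for *Zbtb7b* was -0.52 (adjusted p = 0.0129) without the second restimulated WT sample, -0.22 (adjusted p = 0.163) without the first and -0.09 (adjusted p = 0.758) with the sex covariate. That for *Runx2* was 1.72 (adjusted p = 0.0124) without the second WT sample, 1.61 (adjusted p = 0.0379) without the third HDAC1cKO sample and 0.4996 (adjusted p = 0.552) with the sex covariate. The *Runx2* locus covered a share of 0.661 of the gene in the first experiment and the whole gene in the second. Its difference therefore sets unlike loci against each other. That for *Runx1* passed the threshold in 5 of 28 other settings, among them -0.67 (adjusted p = 0.0173) without the first restimulated WT sample, and had an adjusted p of 0.169 with the sex covariate.

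The ratio of *Runx3* to *Zbtb7b* FPKM within a sample does not depend on how the library was scaled. In the first experiment it was 0.490, 0.402, 0.513 and 0.433 in WT and 2.998, 1.690, 1.759 and 1.922 in HDAC1cKO-HDAC2HET cells. *Zbtb7b* was the higher of both genes in every WT sample and *Runx3* was the higher in every mutant sample. The mean log2 ratio rose by 2.15, or 4.45-fold (2-sided exact permutation test, p = 0.0286, the smallest possible), and by 1.97 without the first mutant sample. With FPKM summed over all rows inside each locus the rise was 2.72, so its size depended on the rows used. In the second experiment the ratio was 1.075, 0.678 and 0.906 in WT and 1.130, 1.293 and 1.198 in HDAC1cKO cells. The 3 mutant ratios were above the 3 WT ratios, with a gap of 0.47 between the mean log2 values, or 1.38-fold (exact permutation p = 0.1, the smallest possible). That gap was 0.29 without the second WT sample, and 0.22 with overlapping groups when FPKM were summed over all rows inside each locus.

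The ratio of *Runx3* to *Runx1* FPKM was taken in the same way. It was 1.502, 1.36, 1.77 and 1.14 in WT and 11.4, 7.74, 7.30 and 6.22 in HDAC1cKO-HDAC2HET cells, so that the groups lay far apart. The mean log2 ratio rose by 2.48, which is 5.59-fold (exact permutation p = 0.0286), by 2.31 without the first mutant sample and by 2.44 with summed rows. After restimulation it was 2.34, 2.69 and 3.53 in WT and 4.03, 5.11 and 3.87 in HDAC1cKO cells, again without overlap, with a gap of 0.62 in log2 units or 1.53-fold (exact permutation p = 0.1). With FPKM summed over all rows inside each locus the gap was 0.50 (exact permutation p = 0.4). The difference of the ratios between the 2 experiments was not tested.

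**Figure D3:**
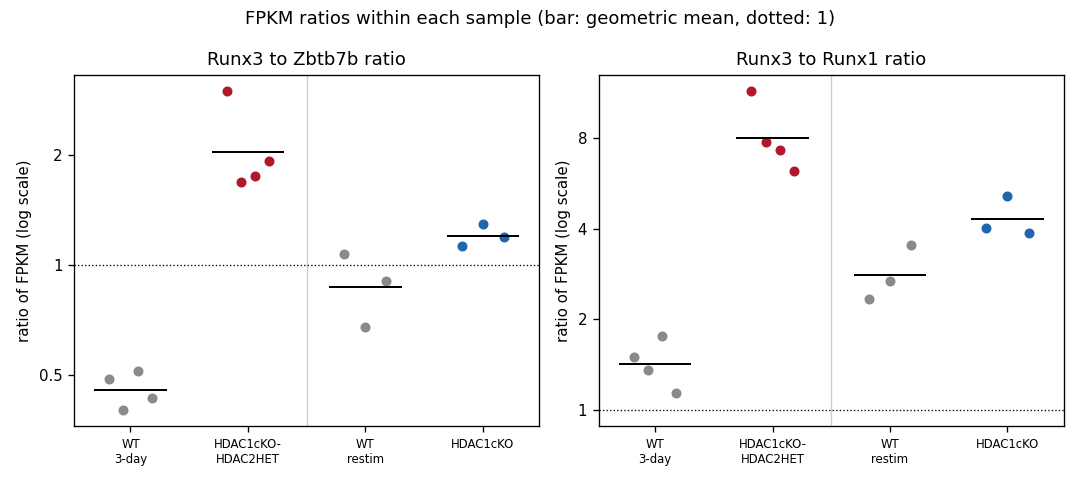
Ratio of FPKM within each sample (y axis, log scale), *Runx3* to *Zbtb7b* on the left and *Runx3* to *Runx1* on the right, by group, with the geometric mean as a bar and 1 as a dotted line. The *Runx3* to *Zbtb7b* ratio is below 1 in all 4 WT samples of the first experiment, at 0.402 to 0.513, and above 1 in all 4 HDAC1cKO-HDAC2HET samples, at 1.690 to 2.998.

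Because the 3 RUNX proteins share CBFβ, the summed FPKM of their genes and the share of each were computed as well, measures chosen after the values had been seen. These are RNA levels and do not give the amounts of the proteins. The sum was 27.0 ± 1.24 FPKM in WT and 55.5 ± 13.1 in HDAC1cKO-HDAC2HET cells, 2.02-fold higher (exact permutation p = 0.0286). *Runx3* made up 57.5% ± 4.27 of the sum in WT and 86.0% ± 2.89 in the mutant. *Runx1* went from 40.5% ± 4.42 to 10.99% ± 2.30, and *Runx2* was at 2.02% ± 0.547 and 2.98% ± 0.617 with overlapping groups (exact permutation p = 0.0571). The ratio of *Cbfb* to the RUNX sum was 2.65, 3.08, 2.68 and 2.89 in WT and 0.793, 1.17, 0.998 and 1.197 in the mutant. *Cbfb* was above the RUNX sum in every WT sample and in 2 of 4 mutant samples, with a mean of 2.82 ± 0.204 against 1.04 ± 0.186 (exact permutation p = 0.0286). In the restimulated cells the *Cbfb* ratio was 2.15 ± 0.157 in WT and 1.86 ± 0.114 in HDAC1cKO cells, without overlap (exact permutation p = 0.1). The *Runx3* share there was 68.7% ± 4.46 in WT and 75.8% ± 3.97 in the mutant, and the groups overlapped (exact permutation p = 0.2).

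**Figure D4:**
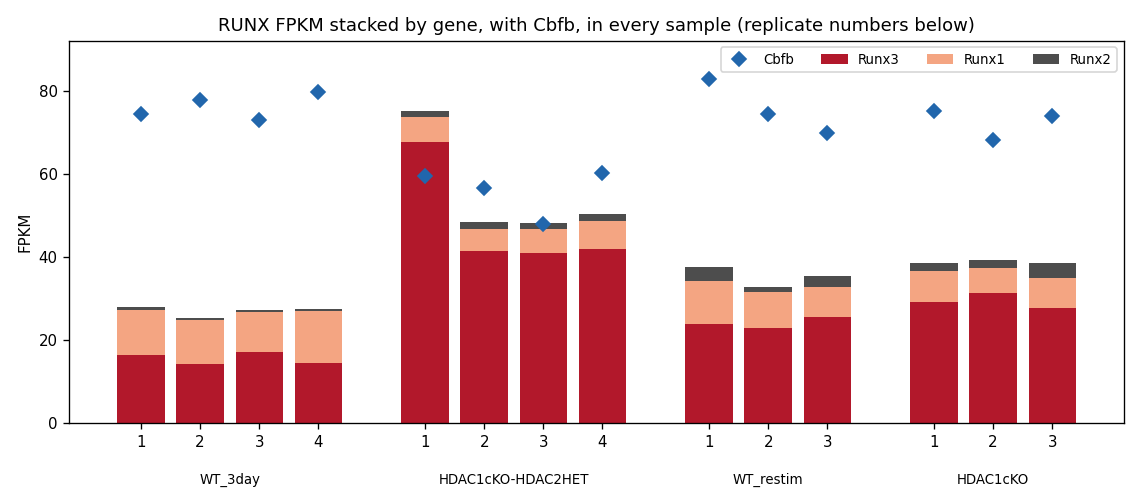
FPKM (y axis, linear from 0) of *Runx3*, *Runx1* and *Runx2* stacked in each sample, with *Cbfb* as a diamond, for the replicates of the 4 groups on the x axis. In the 4 WT samples of the first experiment the stack reaches 25.2 to 28.0 FPKM, far below *Cbfb*, and in the 4 HDAC1cKO-HDAC2HET samples it reaches 48.1 to 75.1 FPKM.

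The order of the levels differed between the groups. In WT cells after 3 days it was *Cbfb*, *Zbtb7b*, *Runx3*, *Runx1* and *Runx2*, with no overlap between neighbours. In HDAC1cKO-HDAC2HET cells it was *Cbfb*, *Runx3*, *Zbtb7b*, *Runx1* and *Runx2*, and *Cbfb* and *Runx3* overlapped, since *Runx3* was above *Cbfb* in the first sample. In restimulated WT cells *Zbtb7b* and *Runx3* overlapped, and *Zbtb7b* was the higher in 2 of 3 samples. In HDAC1cKO cells *Runx3* was above *Zbtb7b* in 3 of 3 samples, at 29.4 against 24.4 FPKM on average. The WT samples of the 2 experiments differed in *Runx3*, at 15.5 ± 1.39 FPKM after 3 days and at 24.2 ± 1.32 after restimulation, a difference in which culture and experiment cannot be told apart. Rows with a gene identifier numbered 36704 to 37498 in the first WT libraries and 24417 to 25130 in the second. The computation of the values may therefore differ between the experiments, and its part was not tested.

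Of 20 listed symbols of RUNX and CBFβ cofactors, in which 1 gene stands under both its older and its newer symbol, 17 were tested. In HDAC1cKO-HDAC2HET cells 6 rose, 8 fell and 3 did not pass, where 24.2% of all genes tested rose and 27.6% fell, with a median log2 fold change of -0.08 against -0.04 over all genes tested. By the size of the change the leading ones were *Crebbp*, a histone acetyltransferase and coactivator, which fell from 8.38 ± 0.222 to 4.35 ± 0.304 FPKM (limma adjusted p = 9.73e-06), and *Yap1*, a Hippo pathway coactivator, which fell from 0.471 ± 0.0959 to 0.214 ± 0.0541. *Tle1*, a Groucho-type corepressor that RUNX proteins recruit, fell from 0.840 ± 0.141 to 0.447 ± 0.137 FPKM, and the kinase gene *Hipk2* rose from 2.95 ± 0.561 to 5.13 ± 1.17. In HDAC1cKO cells 0 of the 17 were called by limma, where 0.0143% of all genes were called higher and 0.0574% lower. The median was -0.15 against -0.03 over all genes.

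Of 20 transcription factors known from the choice between the CD4 and CD8 lineages, 19 were tested, and in HDAC1cKO-HDAC2HET cells 5 rose, 9 fell and 5 did not pass, beside 24.2% and 27.6% of all genes. The median log2 fold change was -0.25. *Eomes*, the T-box factor eomesodermin of cytotoxic lymphocytes, rose from 2.84 ± 1.19 to 36.8 ± 5.95 FPKM (log2 fold change 3.71, limma adjusted p = 1.47e-05), and *Tbx21*, which encodes T-bet, from 26.7 ± 8.60 to 91.3 ± 1.84 (1.83, adjusted p = 0.000180). The inhibitors of E proteins fell, *Id2* from 74.3 ± 10.03 to 18.6 ± 6.92 FPKM (-2.07, adjusted p = 0.000372) and *Id3* from 88.1 ± 3.85 to 24.03 ± 3.85 (-1.88, adjusted p = 7.84e-06). In HDAC1cKO cells 0 of the 19 were called, beside 0.0143% of all genes called higher and 0.0574% lower. There *Eomes* was at 8.00 ± 3.86 FPKM in WT and 36.7 ± 4.26 in the mutant (log2 fold change 2.31, SE 0.40, adjusted p = 0.147).

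Of 20 genes known as bound or regulated by RUNX3 or ThPOK in T cells, 19 were tested in the first experiment, of which 12 rose and 4 fell, with 24.2% and 27.6% over all genes, and a median log2 fold change of 1.45. Several of these genes were singled out by the study in these same samples, so the count is not independent evidence of a direction. The 4 with the largest changes were *Ifng*, which encodes interferon-γ, *Prf1*, which encodes perforin, *Gzmb*, which encodes granzyme B, and again *Eomes*. *Ifng* rose from 0.963 ± 0.396 to 80.9 ± 13.7 FPKM (log2 fold change 6.31, limma adjusted p = 1.86e-06), *Prf1* from 0.299 ± 0.0524 to 19.8 ± 1.96 (5.64, adjusted p = 1.65e-07) and *Gzmb* from 21.8 ± 6.05 to 646 ± 168 (4.89, adjusted p = 3.94e-06). In HDAC1cKO cells 0 of 17 tested were called, beside 0.0143% of all genes called higher and 0.0574% lower, with a median of 0.64. *Prf1* was at 0.301 ± 0.0852 FPKM in WT and at 2.11 ± 0.601 in the mutant there (2.45, SE 0.30, adjusted p = 0.0772).

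Of 15 BTB zinc finger relatives of ThPOK, 12 were tested, and in HDAC1cKO-HDAC2HET cells 5 rose, 4 fell and 3 did not pass (median -0.05), against 24.2% higher and 27.6% lower over all genes. *Hic1* rose from 1.24 ± 0.258 to 3.98 ± 0.915 FPKM, *Zbtb46*, known from dendritic cells, from 0.732 ± 0.205 to 2.32 ± 0.384, and *Zbtb32*, known as a repressor in activated lymphocytes, from 27.8 ± 8.01 to 79.2 ± 3.07. *Zbtb1*, needed for lymphocyte development, fell from 12.4 ± 5.84 to 4.23 ± 0.245 FPKM. In HDAC1cKO cells 0 of the 12 were called, beside 0.0143% of all genes called higher and 0.0574% lower. *Eomes*, *Tbx21*, *Zbtb7a* and *Patz1* stand in 2 of the 4 lists each.

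**Figure D5:**
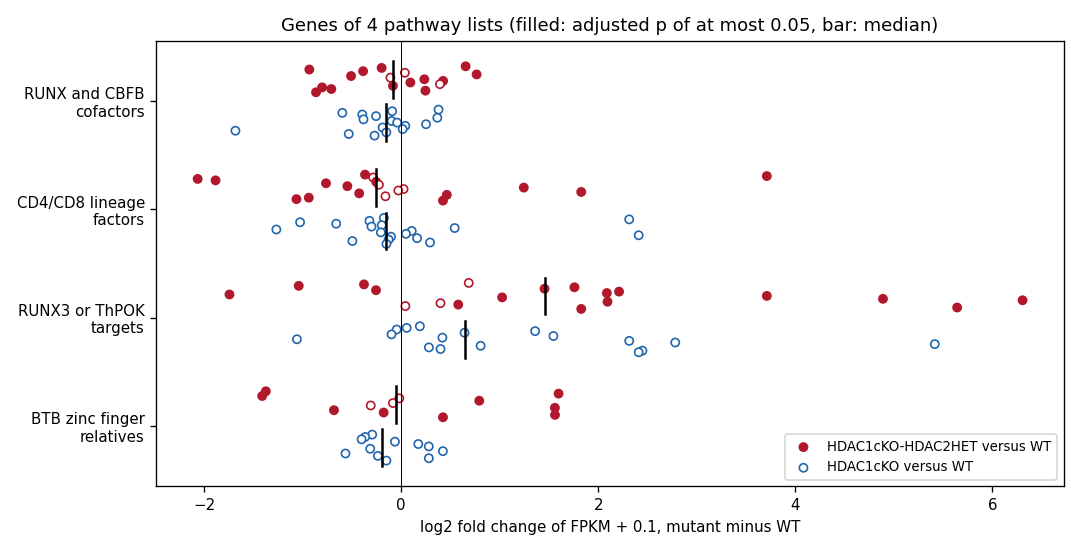
Log2 fold change of FPKM + 0.1 (x axis, mutant minus WT) of each tested gene of 4 lists (y axis) in HDAC1cKO-HDAC2HET (red) and HDAC1cKO (blue) cells, filled where the limma adjusted p is at most 0.05, with the median as a bar. The list of RUNX3 or ThPOK target genes lies to the right in both comparisons, with medians of 1.45 and 0.64, and the other 3 lists have medians between -0.25 and -0.05.

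As a description of likeness, protein-coding genes were ordered by Pearson's r with *Runx3* or *Zbtb7b* over the 14 samples, each centred on the WT mean of its own experiment, among 8725 genes with a mean of at least 1 FPKM in both experiments. The points share their libraries and fall into the groups of the study. With *Runx3*, the 5 highest were *Hip1r* (r = 0.979), *Espn* (0.977), *Foxo4* (0.976), *Rab34* (0.975) and *Fasl* (0.973). *Fasl* encodes the Fas ligand and *Foxo4* a forkhead factor. Without the first HDAC1cKO-HDAC2HET sample, 1 of these 5 remained among the highest 5, and by Spearman's rho 0 did. With *Zbtb7b*, the 5 highest were *Tnfaip8l1* (r = 0.975), *Sh2d3c* (0.973), *Pars2* (0.971), *Tspan32* (0.971) and *Zfp27* (0.970), of which 4 remained without that sample and 0 by rho.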

How the data were processed

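Each library is an mRNA-seq library of FACS-purified activated CD4+ T cells, made with a stranded kit per the labels of both experiments. The study's methods give single 50-base reads for the cells of the first. Per the study's methods the authors aligned reads to mm10 with TopHat and computed FPKM per library with Cufflinks. The submitters' processing notes also list STAR 2.5.2b and Subread 1.5.1, with no role given. The deposited FPKM and the bounds around them were used as deposited, and no raw counts were used. Fragment totals were estimated from single-transcript genes of low FPKM and their Cufflinks bounds, of which 87.7% to 92.2% per library gave whole fragments within 0.05.

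Of the 70 values of the 5 genes, 5 came from rows that carry the gene's name and 65 from assembled loci that share at least 0.8 of the joint span with the gene or 1 of its transcripts (GENCODE vM21, the mm10 assembly). Genes whose FPKM averaged 0.1 or more were tested in each experiment alone with limma 3.58.1 (R 4.3.3) on log2(FPKM + 0.1) with an intensity trend, and called at a Benjamini-Hochberg adjusted p of at most 0.05. FPKM are not counts, and folds on this scale understate the change of low genes. The difference of the contrasts was fitted over all 14 samples. Ratios had 2-sided exact permutation tests of the mean log2 ratio over 70 or 20 arrangements. The limma code was tested on simulated data.

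The members and lists were chosen with earlier results of these data known. The genes named were the 5 members, *Hdac1* and *Hdac2*, up to 4 per list with the largest called change in the first experiment, overlapping and nearest tested genes, and the 5 most like *Runx3* or *Zbtb7b*. Alternatives changed the pseudocount, filter, scaling, spread model, locus matching and samples. Each Cufflinks interval is for the value of 1 library and does not cover the spread between samples. Between any 2 libraries, at most 0.0101% of genes above 1 FPKM held identical values.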

Additional observations from a re-analysis of the deposited data

Results flagged for a closer look

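Within the groups of 4 samples, single samples stood apart by Dixon's criterion (critical value 0.829) in 4 of the 20 groups of values examined, and chance gives about 1 in 20. *Runx3* was at 67.6 FPKM in the first HDAC1cKO-HDAC2HET sample, against 41.0 to 41.9 in the other 3, a gap of 0.966 of the range. The RUNX sum, which contains it, was at 75.1 FPKM in the same sample. *Zbtb7b* was at 35.7 FPKM in the second WT sample of the first experiment and *Runx2* at 1.71 FPKM in the fourth HDAC1cKO-HDAC2HET sample, both of them small distances within narrow groups.

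For 2 genes the change differed between the experiments by the limma contrast over all 14 samples, by 1.31 on the log2 scale for *Runx3* (SE 0.21, adjusted p = 0.00196) and by -0.38 for *Cbfb* (SE 0.11, adjusted p = 0.0411). The call for *Runx3* was kept in 28 of 28 other settings, and that for *Cbfb* was lost in 14 of 28. Genotype and culture cannot be told apart in this contrast.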

How the results depend on the processing

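All 5 genes kept their direction and their call in HDAC1cKO-HDAC2HET cells under every alternative run (105 of 105 gene and setting pairs), and 0 of 100 such pairs were called in HDAC1cKO cells. There the *Runx2* estimate ran from -0.31 to 0.40 with single samples left out, being -0.31 without the second WT sample and -0.20 without the third mutant sample, and that of *Cbfb* ran from -0.12 to 0.0041, the latter without the first WT sample. For the difference between the experiments, the number of genes called lower (1) was 0 with no filter on low values, median scaling, no intensity trend, the sex covariate or separate spreads for the experiments, 2 with a mean FPKM of at least 1 or sample weights, and 0 to 2 with single samples left out, while the number higher was 1 to 2. The cause was not tested. With a fold change of at least 2 required as well, the lists had 0 higher and 0 lower cofactors, 3 and 3 lineage factors, 11 higher and 2 lower target genes, and 3 higher and 2 lower BTB relatives. Of all genes tested, 5.6% were called at least 2-fold higher, and the share at least 2-fold lower is not given here. Several of the target genes were singled out by the study in these same samples, so their count is not independent evidence. Of the 5 genes most like each, 1 remained for *Runx3* without the first HDAC1cKO-HDAC2HET sample, and by Spearman's rho 0 remained for *Runx3* and 0 for *Zbtb7b*.

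Over the genes as a whole, same-numbered samples did not deviate together (correlations of -0.0225 to 0.0669). This does not settle whether the numbers pair them, since a pairing that acts on some genes was not tested. With the replicate block the log2 ratios stayed at 2.15 and 2.48 with p = 0.125, the smallest that an exact sign-flip permutation of 4 pairs allows, and the limma calls of the 5 genes did not change. The sex covariate could not be fitted in the first experiment, where *Xist* was high in all samples. Precision was lowest for *Runx2*, whose Cufflinks interval ran to up to 36.8% of the value on either side.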

Other observations

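The nearest tested protein-coding genes on either side of the 5 loci were measured as well. In HDAC1cKO-HDAC2HET cells *Adam15*, 27648 bases from *Zbtb7b* and encoding a membrane metalloprotease, rose from 10.9 ± 0.638 to 29.3 ± 2.30 FPKM (limma adjusted p = 3.48e-06), opposite to *Zbtb7b*, while *Flad1* on the other side was at 8.54 ± 0.169 and 10.3 ± 0.557 (adjusted p = 0.00156). On either side of *Runx3*, *Clic4* (35979 bases away) rose from 45.5 ± 8.68 to 78.6 ± 2.95 FPKM (adjusted p = 0.000925). *Syf2* (183104 bases away) rose from 57.9 ± 1.07 to 66.6 ± 1.80 (adjusted p = 0.000534). *Rcan1*, 130599 bases from *Runx1*, fell from 8.06 ± 0.607 to 4.77 ± 0.0965 FPKM (adjusted p = 2.87e-05). *Setd4*, 757308 bases from *Runx1* on the other side, did not pass the test (adjusted p = 0.0946).

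*Clic5*, 215815 bases from *Runx2*, rose from 0.0932 ± 0.0233 to 1.70 ± 0.192 FPKM (log2 fold change 3.22, limma adjusted p = 2.52e-06). *Cdc5l*, 577087 bases from *Runx2*, did not pass (adjusted p = 0.787). *Supt3*, which overlaps *Runx2* on the other strand, fell from 9.57 ± 0.587 to 8.31 ± 0.181 (adjusted p = 0.0110). *Ces2c*, 316191 bases from *Cbfb*, was at 0.202 ± 0.0365 and 0.00524 ± 0.00610 FPKM (adjusted p = 0.000174). It belongs to a family of near-identical genes whose reads may be split in counting. *D230025D16Rik*, 7156 bases from *Cbfb*, was at 6.10 ± 0.175 and 6.85 ± 0.324 (adjusted p = 0.0203). In HDAC1cKO cells 0 of these 11 genes were called, beside 0.0143% of all genes called higher and 0.0574% lower. The largest value there was that of *Ces2c*, at 4.34 ± 2.65 FPKM in WT and 0.0293 ± 0.0293 in the mutant (log2 fold change -4.89, SE 0.56, limma adjusted p = 0.0635).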
